A study of Homo sapiens with 6 samples.

Results

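Transcripts of 10 cell adhesion genes were compared between parental L3.6pl cells, a human cell line from pancreatic cancer, and L3.6pl cells deficient in ARID1A. The genes were ICAM1, VCAM1, L1CAM, ALCAM, MCAM, NCAM1, NRCAM, PECAM1 and BCAM, which encode adhesion molecules with immunoglobulin-like domains, and EPCAM, which encodes an epithelial adhesion molecule of another fold. They were taken by symbol, and all 10 were found among 23245 gene rows. The parental group held 3 libraries with wild-type ARID1A, and the other group held 3 libraries from cells that the sample titles call ARID1Ako and the genotype label calls ARID1A-deficient. All cells were grown in the same serum-containing medium without a drug. The labels do not say how ARID1A was disrupted, or whether the deficient libraries came from 1 clone or several. They do not say either that the libraries of a group came from separate cultures, so p-values measure the spread between these libraries only.

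Adhesion molecules of the immunoglobulin superfamily are membrane proteins that bind a partner on a neighbouring cell, on the matrix or on a leukocyte. ICAM1 and VCAM1 are ligands for leukocyte integrins and are classical targets of inflammatory NF-kB signalling. ALCAM, MCAM, NCAM1 and PECAM1 bind copies of themselves or other surface proteins, L1CAM and NRCAM belong to the neural L1 family and reach the cytoskeleton through ankyrins, and BCAM is a receptor for the laminin alpha 5 chain. EPCAM is a hallmark of simple epithelium and of carcinomas derived from it, the pancreas included. ARID1A itself, which belongs to the SWI/SNF complexes that move nucleosomes, had 11.8, 6.76 and 9.42 FPKM in parental and 3.55, 3.28 and 3.61 FPKM in ARID1A-deficient libraries. FPKM counts fragments per length of transcript and per size of library, so levels of different genes can be set side by side.

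Each library had a total of 576084 to 792187 FPKM, and depth, with parental library 1 set to 1, came to 0.729 to 1.28 as judged from exact ratios among low rows. The totals of fragments were not given in the sources used here. For several low genes the values were whole multiples of a common step to within 0.1 of a step, and that step was read as 1 fragment. Fragment numbers given below rest on this reading, and intervals made from them cover counting error only. Genes were tested with limma on log2(FPKM + 1), with Benjamini-Hochberg adjustment over all 12826 genes that had a mean of at least 0.5 FPKM, and were called at an adjusted p under 0.05. Of the genes tested, 15.9% were called, 7.82% higher and 8.11% lower in ARID1A-deficient cells. Of the 10 adhesion genes, 5 were tested, and ICAM1 reached the mean only through the ARID1A-deficient group. ICAM1 was called higher, ALCAM and PECAM1 were called lower, and BCAM and EPCAM were not called.

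The 10 genes spanned a wide range of measured levels. BCAM and EPCAM together made up 97.4% to 98.3% of the summed FPKM of the 10 genes in every library. By mean FPKM, BCAM ranked 355 and EPCAM ranked 429 among the 23245 rows in parental cells, and 279 and 590 in ARID1A-deficient cells. ALCAM came next, followed in parental cells by PECAM1. L1CAM, MCAM and ICAM1, with overlapping values, followed PECAM1 in parental cells, and NCAM1 and NRCAM, which overlapped, stood lowest of the genes above 0. In ARID1A-deficient cells ICAM1 stood between ALCAM and PECAM1, NRCAM stood below PECAM1, and L1CAM, NCAM1 and MCAM were lowest, the last 2 with overlapping values. The summed level of the 10 genes was 523.7 to 634.4 FPKM in parental and 528.6 to 617.8 FPKM in ARID1A-deficient libraries, so the sums overlapped.

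**Figure D1:**
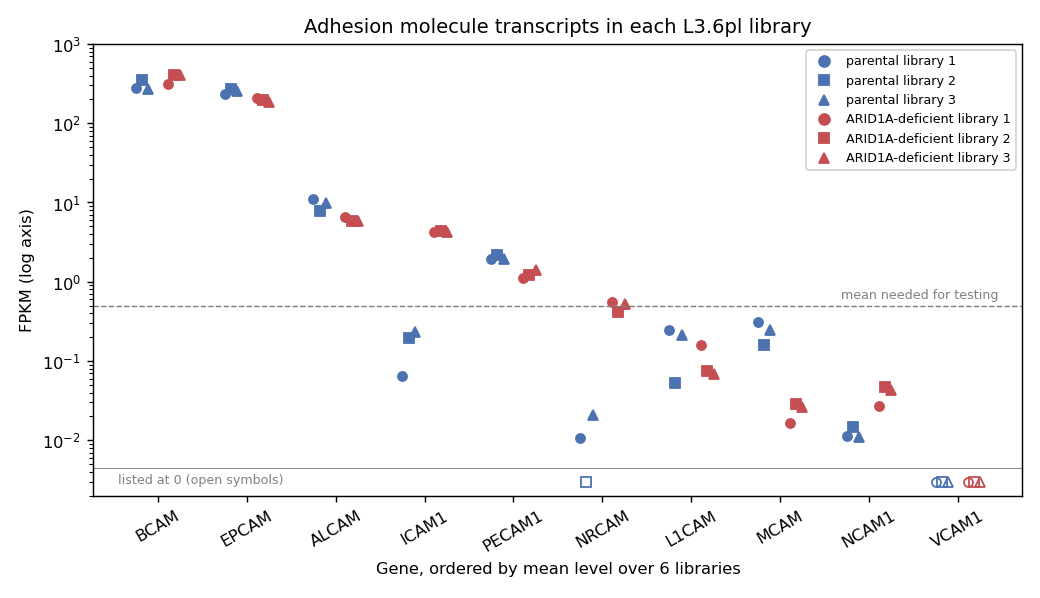
FPKM on a log axis of each adhesion gene in each of 3 parental (blue) and 3 ARID1A-deficient (red) L3.6pl libraries, with open symbols for values listed at 0. ICAM1 and NRCAM lie higher and MCAM lower in all ARID1A-deficient libraries, BCAM overlaps between the groups, and VCAM1 is listed at 0 in all 6.

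ICAM1 and VCAM1, the ligands for leukocyte integrins, differed in whether they were seen at all. ICAM1, which binds the beta 2 integrins of leukocytes, had 0.0646, 0.192 and 0.232 FPKM in parental libraries 1, 2 and 3 and 4.19, 4.43 and 4.24 FPKM in ARID1A-deficient libraries 1, 2 and 3. The groups were far apart, and the ARID1A-deficient values lay close to each other, with a coefficient of variation of 2.97%. ICAM1 rose 26.3-fold by group means, and its log2 fold change was 2.19 with an SE of 0.10 (limma adjusted p = 2.55e-05). Read as fragments, parental libraries 1, 2 and 3 held 3, 7 and 11 and ARID1A-deficient libraries 1, 2 and 3 held 248, 150 and 157. The ratio of the summed fragments per depth was 26.5, with a 95% interval of 17.1 to 43.1 from an exact binomial split. The fold is therefore imprecise on the parental side, and with a pseudocount of 0.1 the log2 fold change was 4.12. ICAM1 was called in all 15 alternatives in which it was tested. In a newer annotation, GENCODE release 29 on GRCh38, 2 antisense genes overlap ICAM1, and the library kit does not mark strand. L1CAM, MCAM, NCAM1, PECAM1 and EPCAM also overlap other genes in that release.

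VCAM1, the ligand of the integrin alpha 4 beta 1, was listed at 0 in all 6 libraries. A listed 0 can be a failed estimate, since TUBB, which encodes a widely expressed tubulin, was also listed at 0 in all 6, and no fold or limit is given for VCAM1. The stretches before the transcription starts of ICAM1 and VCAM1 are shown because NF-kB sites are known to serve both genes. Whether VCAM1 was silent cannot be told from its listed 0. They are the 250 bases before the start in RefSeq on GRCh38.p14, both on the plus strand, chr19:10270870-10271119 for ICAM1 and chr1:100719492-100719741 for VCAM1. Capitals mark the letters GGNNNTTCC, a loose form of the NF-kB site, and TATAAA, each searched on both strands, so that a match on the minus strand reads as its reverse complement.
ICAM1: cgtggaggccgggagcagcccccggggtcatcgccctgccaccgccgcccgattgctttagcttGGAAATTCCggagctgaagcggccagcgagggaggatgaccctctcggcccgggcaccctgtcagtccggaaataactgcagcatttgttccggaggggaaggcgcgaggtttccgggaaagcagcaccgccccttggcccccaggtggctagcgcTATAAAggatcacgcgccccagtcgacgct
VCAM1: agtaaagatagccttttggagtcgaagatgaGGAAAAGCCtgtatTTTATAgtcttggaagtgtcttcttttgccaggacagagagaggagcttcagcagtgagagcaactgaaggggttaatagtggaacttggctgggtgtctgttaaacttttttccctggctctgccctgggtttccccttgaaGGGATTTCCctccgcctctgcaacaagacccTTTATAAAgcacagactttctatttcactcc
The ICAM1 stretch held the letters GGAAATTCC from 186 to 178 bases before the start, overlapping a match to the ETS letters CCGGAA on the minus strand, and TATAAA from 30 to 25 bases before it. In VCAM1, GGGATTTCC lay 62 to 54 bases before the start and a second match, GGCTTTTCC on the minus strand, lay 219 to 211 bases before it. Of 27305 RefSeq promoters of the same length, 17.1% held the loose NF-kB letters, 11.1% held TATAAA and 14.8% held the ETS letters, on either strand. The AP-1 letters TGANTCA, found in 6.60% of promoters, were in neither stretch. The stretches also differed in base composition, with 66.0% G or C and 23 CG pairs for ICAM1 against 46.0% and 2 for VCAM1. Letters that depart from GGNNNTTCC are not marked, such as gggtttcccc shortly before GGGATTTCC in VCAM1. An unmarked stretch is therefore not shown to lack an NF-kB site, and the marked matches need not be the sites known to serve the genes. A match is a description of these letters and not evidence of binding.

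Of the L1 family, NRCAM lay higher in ARID1A-deficient cells and L1CAM overlapped between the groups, and whether the genes differ in their change was not tested. NRCAM, a neural cell adhesion molecule with an ankyrin-binding tail, had 0.0107, 0 and 0.0210 FPKM in parental and 0.563, 0.412 and 0.525 FPKM in ARID1A-deficient libraries. Every ARID1A-deficient library lay above every parental one. Read as fragments, this was 1, 0 and 2 against 67, 28 and 39, a ratio per depth of 44.7 with a 95% interval of 14.98 to 219.6. Its mean was under 0.5 FPKM, so NRCAM was not among the tested genes. Without the filter on low values its log2 fold change was 0.57 (SE 0.05, limma adjusted p = 0.000842), in a fit that called 12.9% of 17832 genes, and 2.44 with a pseudocount of 0.1 (SE 0.19, adjusted p = 0.000475). L1CAM, linked in other work to invasion of carcinoma along nerves, measured 0.246, 0.0522 and 0.214 FPKM against 0.161, 0.0748 and 0.0684 FPKM. These groups overlapped, with 18, 3 and 16 fragments against 15, 4 and 4. The ratio of L1CAM fragments per depth, ARID1A-deficient over parental, was 0.622 with an interval of 0.353 to 1.08, and without the filter the adjusted p was 0.535. No difference in L1CAM was detected with these fragment numbers.

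Among the homophilic adhesion genes, ALCAM and PECAM1 were lower in ARID1A-deficient cells. ALCAM, also called CD166, measured 11.04, 7.87 and 9.81 FPKM in parental and 6.56, 5.86 and 5.86 FPKM in ARID1A-deficient libraries. All ARID1A-deficient values lay below all parental ones, and parental library 2 lay nearest to them. ALCAM fell 1.57-fold (log2 fold change -0.57, SE 0.13, limma adjusted p = 0.0277). The call ended without parental library 1 or 3 or any single ARID1A-deficient library (adjusted p = 0.0636 to 0.118) and with libraries rescaled to 1 sum (adjusted p = 0.176). Parental library 2 also had the steepest decline of values with transcript length, a slope of log2 values of -0.0449 per doubling of length against 0.0479 and 0.0242 in parental libraries 1 and 3, and with this slope as a covariate the ALCAM adjusted p was 0.00373. The part of length in the result was not otherwise tested.

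PECAM1, the CD31 molecule of endothelium, platelets and leukocytes, measured 1.91, 2.18 and 1.93 FPKM in parental and 1.11, 1.205 and 1.39 FPKM in ARID1A-deficient libraries. The groups did not overlap. PECAM1 fell 1.63-fold (log2 fold change -0.43, SE 0.10, limma adjusted p = 0.0254). This call, too, ended without any single library but parental 2 (adjusted p = 0.0506 to 0.0982) and with libraries rescaled to 1 sum (adjusted p = 0.0651).

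**Figure D2:**
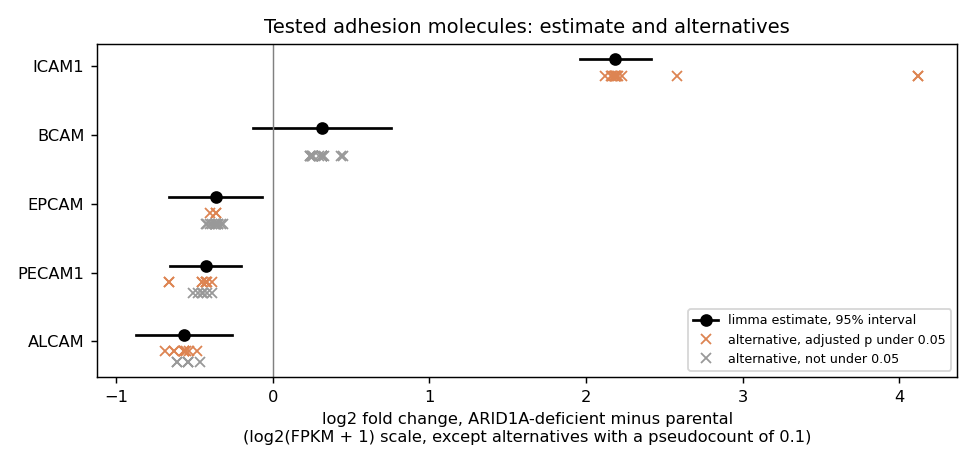
Log2 fold change (ARID1A-deficient minus parental) of the 5 tested adhesion genes, with the limma estimate and its 95% interval in black and the alternatives below it, orange where the adjusted p was under 0.05 and grey otherwise. ICAM1 was called in all 15 of its alternatives, ALCAM in 10 of 16, PECAM1 in 9 of 15, EPCAM in 3 of 16 and BCAM in 0 of 16.

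MCAM, also called CD146, is known from melanoma, endothelium and pericytes. It measured 0.314, 0.160 and 0.246 FPKM in parental and 0.0164, 0.0287 and 0.0263 FPKM in ARID1A-deficient libraries, again without overlap. In fragments this was 15, 6 and 12 against 1 in each ARID1A-deficient library. The parental level per depth was 10.99-fold higher, with an interval of 3.45 to 56.0. Without the filter MCAM changed by -0.27 on the log2 scale (SE 0.05, limma adjusted p = 0.0146), and -1.43 with a pseudocount of 0.1 (SE 0.21, adjusted p = 0.00714). MCAM overlaps CBL on the other strand in GENCODE release 29, and CBL measured 2.14 to 3.97 FPKM in parental and 2.27 to 2.71 FPKM in ARID1A-deficient libraries, so reads of the pair cannot be told apart where they overlap.

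NCAM1, the CD56 molecule of neurons and natural killer cells, measured 0.0114, 0.0145 and 0.0111 FPKM in parental and 0.0267, 0.0468 and 0.0428 FPKM in ARID1A-deficient libraries. These values did not overlap, yet they amounted to 1 fragment in each parental and 3 in each ARID1A-deficient library. The ratio per depth was 3.003 with an interval of 0.750 to 17.2, and without the filter the limma adjusted p was 0.295. No difference was detected with these few fragments. Of the 4 adhesion genes above 0 but under the mean for testing, NRCAM, MCAM and NCAM1 did not overlap between groups. Among all 5006 such rows 20.5% did not overlap, 14.9% with higher and 5.65% with lower values in ARID1A-deficient cells.

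BCAM and EPCAM, the abundant epithelial members, were not called. BCAM, the Lutheran blood group glycoprotein that binds laminin, measured 275.8, 354.7 and 272.6 FPKM in parental and 308.5, 410.4 and 406.3 FPKM in ARID1A-deficient libraries. The groups overlapped, and parental library 2 and ARID1A-deficient libraries 2 and 3 were highest. The log2 fold change was 0.32 (SE 0.19, 95% interval -0.12 to 0.75, limma adjusted p = 0.314). EPCAM measured 234.3, 269.2 and 257.6 FPKM in parental and 207.5, 195.3 and 187.2 FPKM in ARID1A-deficient libraries. All ARID1A-deficient values lay below all parental ones, with the log2 fold change at -0.36 (SE 0.13, 95% interval -0.66 to -0.07, limma adjusted p = 0.101). It passed with the length covariate (adjusted p = 0.00981) and without trend and robust moderation (adjusted p = 0.0448). Of the 5 tested adhesion genes, 4 did not overlap between groups, namely ICAM1, ALCAM, PECAM1 and EPCAM, against 35.3% of all tested genes. ICAM1 was the 1 that lay higher and the other 3 lay lower, against 16.7% and 18.6% of all tested genes. Since ICAM1 reached the mean for testing only through the ARID1A-deficient group, it adds no support to these counts.

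The ratio of EPCAM to BCAM within a library does not depend on how the library was scaled. It was 0.850, 0.759 and 0.945 in parental and 0.673, 0.476 and 0.461 in ARID1A-deficient libraries, without overlap. The means were 0.851 ± 0.0931 and 0.536 ± 0.118 (SD, n = 3 each). The ratio of ICAM1 to ALCAM was 0.00585 to 0.0244 in parental and 0.638 to 0.755 in ARID1A-deficient libraries. The ratio of ALCAM to EPCAM was 0.0292 to 0.0471 in parental and 0.0300 to 0.0316 in ARID1A-deficient libraries, which overlap. A ratio shows unequal change, and not which of the genes changed. How many other gene pairs would not overlap was not counted, so the ratios are a description only. That of ICAM1 to ALCAM repeats the separation of ICAM1 given above.

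EPCAM lies on chromosome 2 among genes that were lower as well. The 40 tested genes nearest to it in the RefSeq order of GRCh38 had a median log2 fold change of -0.41, against -0.01 over all tested genes. Of these 40, 17 were called lower and 0 higher, where 8.11% of all tested genes were called lower and 7.82% higher. The value of EPCAM, -0.36, thus lay near the median of its neighbours. The neighbours of the other 9 adhesion genes had medians of -0.15 to 0.14. For ALCAM, the 40 neighbours had a median of 0.04, with 5 called higher and 0 lower, and for ICAM1 the median was 0.10, with 1 higher and 1 lower. Whether the neighbourhood has a part in the EPCAM values was not tested.

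Of the close relatives named in this paragraph, namely ICAM3, ICAM2, ICAM5, NFASC, CHL1 and NCAM2, ICAM3 was tested and the others lay under the mean for testing. ICAM3, a leukocyte relative of ICAM1, measured 6.97, 10.6 and 7.40 FPKM against 10.6, 16.1 and 15.2 FPKM and was not called (adjusted p = 0.0617), though it was in 5 alternatives. ICAM2 was at 0, 0.203 and 0.0329 FPKM against 0 in every ARID1A-deficient library, and ICAM5 at 0.183 to 0.257 against 0.225 to 0.470 FPKM. NFASC, of the L1 family, measured 0.187 to 0.308 and 0.227 to 0.471 FPKM, and CHL1, of the same family, was listed at 0 in all 6 libraries. NCAM2, the paralog of NCAM1, measured 0.0136, 0.0174 and 0.0401 FPKM against 0.0642, 0.0936 and 0.120 FPKM, or 1, 1 and 3 fragments against 6, 5 and 7.

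**Figure D3:**
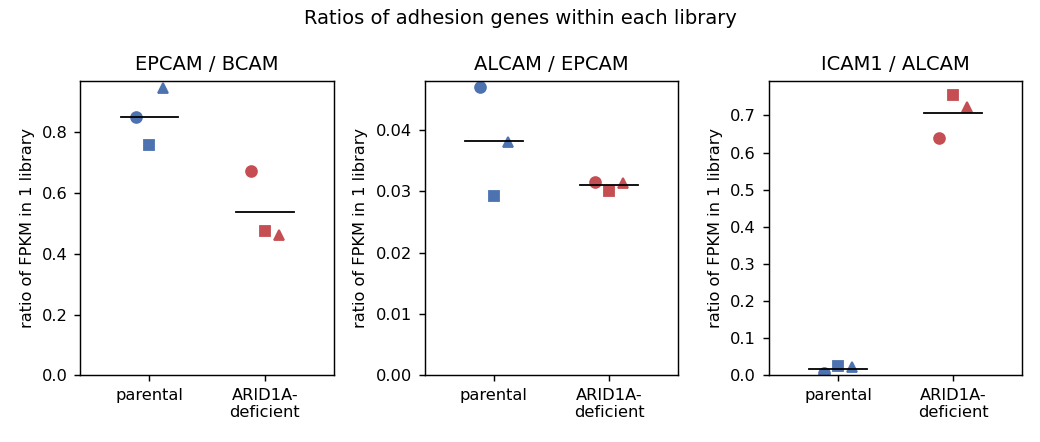
Ratio of the FPKM values of 2 genes within each library, with points for the 3 parental (blue) and 3 ARID1A-deficient (red) libraries, circle, square and triangle for libraries 1, 2 and 3, and a line at the group mean. In all ARID1A-deficient libraries EPCAM over BCAM is lower and ICAM1 over ALCAM is higher than in any parental one, while ALCAM over EPCAM overlaps.

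Other adhesion molecules with immunoglobulin-like domains numbered 25, of which 14 were tested, 5 were called higher, 0 lower and 9 not called, with 1 lower at an unadjusted limma p under 0.05. The median log2 fold change of the tested genes was 0.31, beside -0.01 over all tested genes. PVRL3, which encodes nectin 3, was 2.07-fold higher, at 1.01 ± 0.214 and 2.09 ± 0.214 FPKM (SD, n = 3 each). PVR, the poliovirus receptor and a nectin-like molecule, rose 1.35-fold, CD47, a surface signal that limits phagocytosis, rose 1.32-fold, and CADM4, a nectin-like molecule, rose 1.43-fold. Their limma adjusted p was 0.0118 for PVRL3, 0.0166 for PVR, 0.0214 for CD47 and 0.0276 for CADM4. The fifth gene called higher, named after its values were seen, was CLMP, an adhesion molecule of tight junctions, at 0.462 ± 0.103 and 1.54 ± 0.625 FPKM (SD, n = 3 each, limma adjusted p = 0.0290). CLMP, like ICAM1, reached the mean for testing only through the ARID1A-deficient group, so its call adds no support to the count of 5. Leaving out parental library 1, parental library 3 or ARID1A-deficient library 3 ended its call, as did rescaling libraries to 1 sum (adjusted p = 0.0577 to 0.0963). With libraries rescaled to 1 sum PVRL3, PVR, CD47 and CADM4 were not called (adjusted p = 0.0652 to 0.218), and their calls also ended without parental library 3 (adjusted p = 0.0608 to 0.117). The calls of PVR, CD47 and CADM4 ended without any single ARID1A-deficient library, and those of CD47 and CADM4 without parental library 1.

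Counter-receptors and ligands were represented by 17 genes, of which 7 were tested, 2 were higher, 0 lower (1 at an unadjusted limma p under 0.05) and 5 not called, with a median of 0.37. ITGA5, the alpha 5 integrin chain, was 1.55-fold higher, at 10.9 ± 0.495 and 17.0 ± 1.02 FPKM (SD, n = 3 each, limma adjusted p = 0.00437). FGFR1, a growth factor receptor that NCAM1 and L1CAM can engage, rose 1.66-fold (adjusted p = 0.0116). Both calls ended with libraries rescaled to 1 sum (adjusted p = 0.0656 and 0.101), and that of FGFR1 also without ARID1A-deficient library 3 (adjusted p = 0.0627). LAMA5, the laminin chain that BCAM binds, measured 43.9 to 59.4 and 52.6 to 62.8 FPKM and was not called (adjusted p = 0.511). The leukocyte integrin chains that bind ICAM1 were near 0, with ITGAM listed at 0 in all 6 libraries and ITGB2 at most 0.0710 FPKM.

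Cytoskeletal anchors had 10 of 12 genes tested, 1 higher, 2 lower and 7 not called, with a median of -0.09. EZR, which encodes ezrin, a linker of ICAM-type tails to actin, rose 1.54-fold from 123 ± 3.16 to 189 ± 4.48 FPKM, and SDCBP, the syntenin adaptor gene, was 2.12-fold lower, at 64.1 ± 1.18 and 30.2 ± 1.596 FPKM (SD, n = 3 each). Their limma adjusted p was 0.00933 and 0.000312. Without either library numbered 3, parental or ARID1A-deficient, the EZR call was lost (adjusted p = 0.0593 and 0.0614). SPTAN1, a spectrin chain of the membrane skeleton, was 1.46-fold lower (adjusted p = 0.0143), and lost that call without parental library 3, without any single ARID1A-deficient library and with libraries rescaled to 1 sum (adjusted p = 0.0525 to 0.116).

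Shedding proteases had all 10 genes tested, with 1 higher, 0 lower (0 also at an unadjusted limma p under 0.05) and 9 not called, and a median of -0.07. PSEN2, a catalytic subunit of gamma-secretase, which cleaves the stub of EPCAM after shedding, rose 1.49-fold (limma adjusted p = 0.0266). That call ended without any single library but parental 2 and with libraries rescaled to 1 sum (adjusted p = 0.0601 to 0.115). ADAM10, a sheddase of L1CAM, measured 32.2, 12.1 and 24.1 FPKM against 19.7, 13.3 and 16.2 FPKM, and ADAM17, a sheddase of ICAM1 and EPCAM, measured 19.96, 8.36 and 17.2 FPKM against 11.4, 6.65 and 8.09 FPKM. Parental library 2 was far below the other parental libraries for both. Neither was called (adjusted p = 0.543 and 0.220), but both were called lower without parental library 2 (adjusted p = 0.0196 and 0.0100). Without that library 4079 genes were called over all, against 2043 with it. ADAM17 was also called lower with replicate number as a term (adjusted p = 0.00227), a fit that called 4049 genes.

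EPCAM partners were all 9 tested, with 3 higher, 0 lower (1 at an unadjusted limma p under 0.05) and 6 not called, and a median of 0.15. TSPAN8, a tetraspanin that forms a surface complex with EPCAM, claudin 7 and CD44 variants, rose 3.29-fold from 39.9 ± 4.52 to 131 ± 2.97 FPKM. CLDN1, a claudin that EPCAM stabilises, rose 2.57-fold from 55.3 ± 5.79 to 142 ± 6.86 FPKM, and CD44, the hyaluronan receptor, was 1.44-fold higher, at 42.9 ± 0.496 and 61.8 ± 2.46 FPKM (SD, n = 3 each). Their limma adjusted p was 0.000148, 0.000474 and 0.00697, and of these calls that of CD44 ended without parental library 3 (adjusted p = 0.0518). EPCAM itself was not called, as given above.

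**Figure D4:**
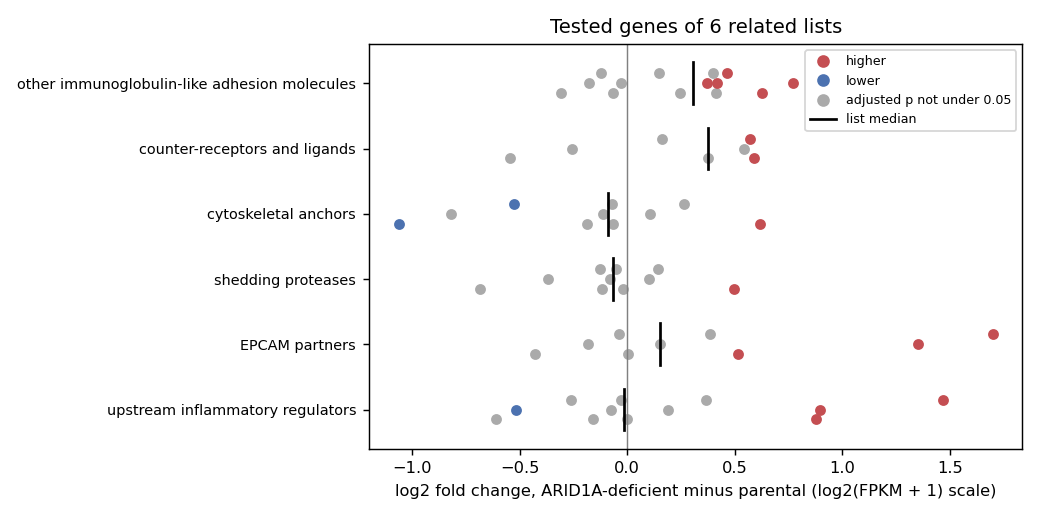
Log2 fold change of each tested gene of 6 lists related to the adhesion genes, 1 point per gene, red for called higher, blue for called lower and grey for not called, with a black line at the list median. TSPAN8, RELB and CLDN1 lie farthest to the right, and SDCBP farthest to the left.

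Upstream inflammatory regulators, among them factors known to drive ICAM1 and VCAM1, had 12 of 17 genes tested, with 3 higher, 1 lower and 8 not called. At an unadjusted limma p under 0.05, 4 were higher and 2 lower. RELB, a subunit of the alternative NF-kB pathway, measured 1.04, 1.57 and 1.18 FPKM in parental and 3.94, 6.59 and 5.43 FPKM in ARID1A-deficient libraries, and rose 4.21-fold (log2 fold change 1.47, SE 0.18, limma adjusted p = 0.00228). NFKB2, its usual partner, rose 1.88-fold from 19.0 ± 2.19 to 35.7 ± 4.27 FPKM, and NFKBIA, the inhibitor that NF-kB itself induces, was 1.88-fold higher, at 42.7 ± 3.67 and 80.3 ± 3.79 FPKM (SD, n = 3 each). RELA and NFKB1, the subunits of the classical heterodimer, were not called, at 46.3 ± 1.93 and 53.0 ± 4.14 FPKM for RELA and 15.6 ± 2.18 and 13.8 ± 1.03 FPKM for NFKB1 (SD, n = 3 each). REL, a further NF-kB subunit named after its values were seen, lay lower in ARID1A-deficient cells without overlap. It measured 1.45, 0.665 and 1.15 FPKM in parental and 0.580, 0.301 and 0.206 FPKM in ARID1A-deficient libraries. REL was not called (limma adjusted p = 0.0567), though it was called lower in 4 alternatives. IRF1, an interferon-induced factor, was 1.52-fold lower (adjusted p = 0.0123), and lost that call without parental library 3, without ARID1A-deficient library 2 or 3 and with libraries rescaled to 1 sum (adjusted p = 0.0598 to 0.0710). The cytokine gene TNF was at 0 throughout. The list had a median log2 fold change of -0.02. The 7 lists together held 99 genes, of which 64 were tested, 16 were higher and 3 lower, with a median of 0.05. Over all tested genes, 7.82% were higher and 8.11% lower. The lists were chosen with earlier results of these data known, and CLMP is among the 16, so no conclusion on the lists is drawn from these counts.

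Markers of cell types in which some of these genes are prominent were read in the same libraries. In bulk RNA, fewer cells of a type and less RNA per cell cannot be told apart. Of the epithelial markers, the keratins KRT8, KRT18 and KRT19 were high, at means of 824 to 2077 FPKM. Others of the list were low. CDH1 had means of 5.35 FPKM in parental and 3.67 FPKM in ARID1A-deficient cells. The untested OVOL1 had means of 0.111 and 0.196 FPKM, and the untested GRHL2 reached 0.0128 FPKM at most. Of the 12 epithelial genes 10 were tested, and CLDN4 was higher and ESRP1 and ELF3 were lower, with a median of -0.41. At an unadjusted limma p under 0.05, 6 of them were lower, KRT8, KRT19, CDH1 and EPCAM included, and 1 was higher. The epithelial list, made up mostly of the keratins, summed to 4278 to 6498 FPKM in parental and 2904 to 3679 FPKM in ARID1A-deficient libraries. Of 12 endothelial markers, ROBO4 and EMCN were listed at 0 in all 6 libraries, and VWF, KDR, TEK and TIE1 reached 0.0394 FPKM at most. CDH5, the endothelial cadherin, measured 7.08 ± 0.945 and 7.62 ± 0.177 FPKM (SD, n = 3 each) and EGFL7 109 to 257 FPKM, and the list summed to 120 to 215 FPKM in parental and 178 to 267 FPKM in ARID1A-deficient libraries. The only 3 tested genes of this list were PECAM1, CDH5 and EGFL7. Of 10 leukocyte markers, 3 were listed at 0 in all 6 libraries, PTPRC reached 0.0442 FPKM, and the list, made up mostly of CD68, summed to 8.82 to 10.4 against 6.26 to 8.32 FPKM.

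Smooth muscle and pericyte markers, read beside MCAM, summed to 2.997 to 4.14 and 3.23 to 3.69 FPKM for 8 genes. Most of the sum came from ACTA2 and RGS5, which were tested and not called (limma adjusted p = 0.401 and 0.865). ACTA2 measured 1.31 to 2.096 FPKM in parental and 1.098 to 1.501 FPKM in ARID1A-deficient libraries. RGS5 measured 1.26 to 1.75 and 1.41 to 1.901 FPKM. The untested NOTCH3 lay higher without overlap, at 0.0571 to 0.108 against 0.235 to 0.285 FPKM. CNN1 reached 0.0594 FPKM at most. Neural and Schwann markers, read beside NRCAM, L1CAM and NCAM1, summed to 32.3 to 35.6 FPKM in parental and 21.4 to 24.2 FPKM in ARID1A-deficient libraries for 13 genes. SOX10, S100B and ELAVL4 of this list were listed at 0 in all 6 libraries, NES was higher and NGFR lower. Of 10 fibroblast markers, DCN and LUM were listed at 0 in all 6 libraries, while COL1A1, COL1A2 and COL3A1 were higher. The sum, nearly all from these collagen genes, was 21.3 to 24.2 FPKM against 176 to 190 FPKM. PDGFRB, FAP, THY1 and POSTN reached 0.0485 FPKM at most, and PDGFRA had means of 0.0365 FPKM in parental and 0.238 FPKM in ARID1A-deficient cells. COL1A2 reached the mean for testing only through the ARID1A-deficient group. The part of these markers in the adhesion results was not tested.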

How the data were processed

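For each sample the authors deposited FPKM values by gene symbol. The tools named are Cuffdiff 2.2.1.5, Cuffnorm 2.2.1.2 and TopHat2 2.1.1, on GRCh37, per the submitters' processing notes. Which annotation, filter and library scaling they used was not given in the sources used here. By the labels' protocols, libraries came from TRIzol RNA with a TruSeq version 2 kit.

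Groups and replicate numbers came from the sample titles. Of 23273 rows, 28 with a symbol turned into a date were left out. Genes at or above a mean of 0.5 FPKM were fitted with limma 3.58.1 (R 4.3.3) on log2(FPKM + 1), with trend and robust moderation and group as the only term, tested on simulated data. Relative depth was the commonest exact ratio of low rows. Fragment steps are an estimate. Alternatives changed the pseudocount, the filter, the scaling, the moderation or the covariates, or left out 1 library. Folds are ratios of group means. Promoters came from RefSeq (GRCh38.p14), with a match for 7 of the 10 genes. NCAM1, PECAM1 and EPCAM had no match. Members and lists were chosen with earlier results of these data known. Genes were named by rule: all 10, up to 4 called genes with the smallest adjusted p per list, 13 set relatives and regulators, and defining markers. 1 gene the rule names is not reported here.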

Additional observations from a re-analysis of the deposited data

How the results depend on the processing

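ICAM1 kept its direction and its call in all 15 alternatives that tested it, with log2 fold changes of 2.12 to 4.12, and no tested adhesion gene changed direction in any alternative. The count of adhesion genes called higher was 2 with no filter on low values, 2 with a pseudocount of 0.1 and no filter (an alternative chosen after seeing the data), and 0 with a minimum mean of 3 FPKM, which leaves ICAM1 untested. The count called lower was 1 with that minimum, which leaves PECAM1 untested, and 0 with each library rescaled to 1 sum. It ranged from 0 to 2 when 1 library was left out. For the 7 related lists, 8 to 21 genes were higher and 1 to 10 lower when 1 library was left out. With the length covariate 8 were lower, and after quantile normalization 6. Over all genes, 667 were higher with the 3 FPKM minimum, 680 lower with libraries rescaled to 1 sum, and 1707 higher and 2128 lower with the length covariate, which rested on lengths for 89.3% of genes. Leaving out 1 library gave 531 to 1982 higher and 433 to 2097 lower, the most without parental library 2. The cause of these differences was not tested, apart from the untested genes named above.

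The replicate block (replicate number as a term) gave 1861 higher and 2188 lower genes and 9 lower genes in the related lists. Under it EPCAM passed (adjusted p = 0.0314). Same-numbered libraries deviated together with r = 0.219, 0.217 and -0.0131, so the numbers were not taken as pairs. Not every library correlated best with its own number. L1CAM, MCAM, NCAM1 and NRCAM rest on 0 to 67 fragments per library, which limits the precision of their ratios.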

Other observations

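Some partners of the adhesion genes lay under the mean needed for testing and are named here after their values were seen. ITGA4, the integrin alpha 4 chain that binds VCAM1, measured 0.0112, 0 and 0.0109 FPKM in parental and 0.231, 0.132 and 0.344 FPKM in ARID1A-deficient libraries. ANK1, an ankyrin gene, measured 0.00868, 0 and 0 FPKM against 0.271, 0.592 and 0.325 FPKM, and ANK2 measured 0.0673, 0.140 and 0.148 FPKM against 0.392, 0.277 and 0.313 FPKM. ANK3, the ankyrin gene of epithelia and neurons, measured 1.10 to 2.33 and 1.36 to 1.95 FPKM and was not called by limma (adjusted p = 0.860). IL6, a cytokine gene, had 0.314, 0.457 and 0.0837 FPKM in ARID1A-deficient libraries 1, 2 and 3, and all 3 parental values were 0. Also under the mean, IL1R1, ITGAX and CNTN1 lay lower without overlap, while NCAM2, ESAM, ITGB3 and IL1A lay higher without overlap. IL1R1 measured 0.356 to 0.463 FPKM in parental and 0.105 to 0.153 FPKM in ARID1A-deficient libraries. Among all 5006 rows above 0 but under the mean, 14.9% lay higher and 5.65% lower without overlap.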
